A study of Homo sapiens with 4 samples.

Results

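Of the 7587 circRNAs with reads in AGS cells, 4013 (52.9%) spanned between 1 and 10 kb of the genome, counted as the distance from the first to the last base of the back-spliced region (end minus start from 1000 bases to under 10 kb, with reads in at least 1 library). They came from 2506 of 3532 host genes and held 154986 of 309689 back-splice reads (50.0%). AGS is a permanent cell line grown from a human gastric adenocarcinoma. DDX5 cells had been transfected with FLAG-DDX5 and NC cells with the FLAG-tagged empty vector, and each group was measured in 2 libraries of total RNA. Ribosomal RNA had been taken out, and RNase R, which digests linear RNA from its 3′ end and leaves circles intact, had been used to enrich circRNAs. Both groups are transfected pools of 1 cell line, and the tag is carried in both. The study's methods call the libraries of a group biological replicates, and p-values measure the spread between these libraries. The overexpression of DDX5 itself was not checked here, because linear RNA had been removed.

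A circRNA forms when the spliceosome joins the 5′ splice site at the end of a downstream exon to the 3′ splice site at the start of an upstream exon. The exons between those sites, and usually not their introns, remain in the closed circle, so a circle that covers several kilobases of the genome can be a short RNA. Long introns on both sides, which often carry inverted repeats, are known to favour back-splicing. DDX5 is a DEAD-box RNA helicase that takes part in splicing, transcription and miRNA processing, and the libraries address the question whether its overexpression changes the circRNA content of these cells.

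The read across a back-splice junction is the only evidence for a circle in these data, so the junctions of the circles that the results turn on are printed first. Each is given 5′ to 3′ in the sense of the host gene, as the last 15 bases of the closing exon in lower case followed by the first 15 bases of the opening exon in capitals. Bases and positions are from GENCODE 29 on GRCh38, whereas the deposited coordinates differ from GRCh38. The first 6 sequences belong to circles read at high levels in all libraries.
ASXL1, exons 2 to 4, chr20:32366384-32369123, plus strand: cttttcacgctcaagGTATTAGAAAACTAC
CAMSAP1, exons 2 to 3, chr9:135881633-135883078, minus strand: ttctggatcaacaagATAACATCCCTGAGG
RHOBTB3, exons 6 to 7, chr5:95755396-95763620, plus strand: aaaacaccaggaaagAAAAAATGCCTGTCT
FAM13B, exons 8 to 10, chr5:137985257-137988315, minus strand: gaagaaaatacccagCACCCATATATCTCC
CORO1C, exons 7 to 8, chr12:108652272-108654410, minus strand: atgtgagattgccagAAAAATATGCAGGAA
TNPO3, exons 2 to 4, chr7:129014979-129018157, minus strand: gtagtatctctattgGTTCATGCATGGGAG

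Circles of 1 gene can share an opening or a closing exon. The gene UBA2, which encodes a subunit of the SUMO-activating enzyme and had the most circles in this span range, shows this with 4 junctions built from 2 closing and 2 opening exons.
UBA2, exons 2 to 5, chr19:34430576-34434968, plus strand: actactatcaaaaagATTGATCTGGATACT
UBA2, exons 2 to 6, chr19:34430576-34438766, plus strand: aaagtacttgttcaaATTGATCTGGATACT
UBA2, exons 3 to 5, chr19:34431861-34434968, plus strand: actactatcaaaaagGTTGCCAAGGAAAGT
UBA2, exons 3 to 6, chr19:34431861-34438766, plus strand: aaagtacttgttcaaGTTGCCAAGGAAAGT

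The next 6 junctions belong to circles whose reads lay in 1 group of libraries. The pair from ETFA opens with the same exon and closes with different ones.
TNPO1, exons 5 to 6, chr5:72861808-72865729, plus strand: tagtccaaaaataagGTATTTTGATCACAA
EXOSC10, exons 17 to 19, chr1:11073934-11076948, minus strand: accaaaatctatgaaGATCTGTGCCAGTTC
RBM6, exons 3 to 5, chr3:49967470-49975392, plus strand: aggagtataacacagTGGGAGCCAAGAAGA
DDAH1, exons 2 to 4, chr1:85350415-85358847, minus strand: cagaaggcccttaagGTTGACATGATGAAA
ETFA, exons 3 to 5, chr15:76287846-76292700, minus strand: gaactatttatgcagGTGGCACAAGATCTC
ETFA, exons 3 to 8, chr15:76283757-76292700, minus strand: aactacatgctgcagGTGGCACAAGATCTC

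Most of the span was intron. The median span was 3663 bases (quartiles 2063 and 6053), but the median spliced length was 367 nt (quartiles 294 and 492) over the 3936 circRNAs (98.1%) whose ends could be placed on exons of their host gene. The shortest placed circle held 97 nt and the longest 3764 nt. For circRNAs spanning under 1 kb the median spliced length was 286 nt, and for those spanning 10 to 50 kb it was 524 nt. Longer spans therefore went with longer circles, but by far less than the spans themselves differed, since the median spans of those classes were 501 and 17523 bases.

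A circle of 2 exons was the commonest form, with 1587 circRNAs (40.3% of those placed) and 46.6% of the placed reads. Circles of 3 exons numbered 1300 (33.0%) and circles of 4 exons 609 (15.5%). Only 43 circles (1.09%) were single exons, because an exon of over 1 kb is needed for this span, and they held 2.56% of the reads. The median number of reads was 24 for single exons and 9 for circles of 7 or more exons. Of the single-exon circles 32.6% (14 of 43) were read in all 4 libraries, against 16.1% of circles with 2 exons. That share was lowest at 5 exons (5.49%), and was 7.14% at 6 exons and 9.68% at 7 or more.

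**Figure D1:**
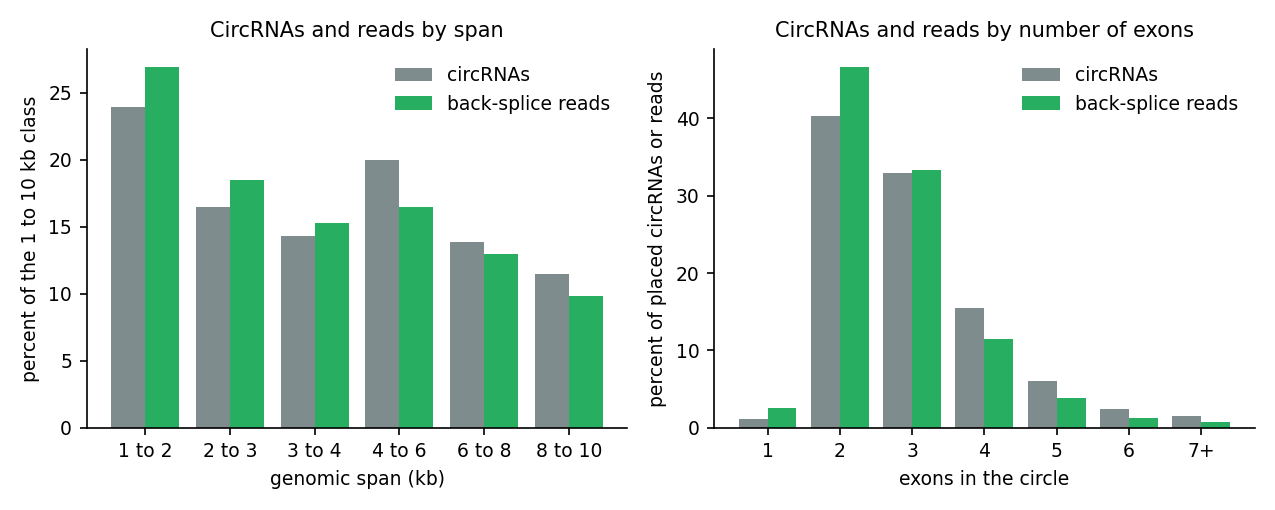
Left, percent of the 4013 circRNAs and of their back-splice reads by genomic span in kb. Right, percent of the 3936 placed circRNAs and of their reads by number of exons in the circle. Spans of 1 to 2 kb held 23.9% of the circRNAs and 26.9% of the reads, and circles of 2 exons held 40.3% of the circRNAs and 46.6% of the reads.

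Most of these circles held coding sequence only. Of the placed circRNAs, 3508 (89.1%) held coding sequence only, 350 (8.89%) held 5′ UTR and coding sequence and 37 (0.940%) held 3′ UTR and coding sequence. Among the coding-only circles 1333 (38.0%) had a spliced length that is a multiple of 3, so that a reading frame could in principle run on through the junction. The opening exon was exon 2 of its transcript in 865 circles (22%), which held 30.7% of the placed reads, and exon 1 in 6 circles. A first exon has no 3′ splice site at its start, and transcript models differ, so these 6 depend on the annotation. The last base of the closing exon was G in 80.3% of the junctions, against 85.0% under 1 kb and 79.5% at 10 to 50 kb.

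The flanking introns were mostly longer than the other introns of the same transcripts, as in the other span classes. The median intron upstream of the circle held 4836 bases and the median intron downstream 4042 bases. The other introns, those inside the circle included, had a median per transcript of 1852 bases at the middle circle. Over all spans the same values were 6146, 5053 and 2062 bases. The upstream intron was longer than the median of the other introns in 3139 of 3923 circles (80.0%, against 80.7% over all spans). Both flanking introns were so in 2618 circles (66.7%, against 68.9% over all spans). Of 4 equal groups by the summed length of both flanking introns, the one with the longest (981 circles, 22630 to 816776 bases) held 42.2% of the placed reads with a median of 18 reads, and 21.2% of it was read in all 4 libraries. The group with the shortest introns (982 circles, 139 to 5320 bases) held 18.0% of the reads with a median of 11 reads, and 10.1% was read in all 4 libraries. Across circles the relation was weak, with a Spearman correlation of total reads of 0.12 with the upstream and 0.15 with the downstream intron length. Both introns were known for 3925 of the 3936 placed circRNAs, which share libraries and in part host genes. GC content in the circle had a median of 47.2%, against 52.2% for circRNAs spanning under 1 kb and 45.7% at 10 to 50 kb.

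Read depth was low. The libraries held 78377 and 60178 back-splice reads of all spans in DDX5 cells, against 73173 and 97961 in NC cells, so 1 read was worth 12.8 and 16.6 RPM (counts scaled so that all libraries have an equal sum) in the DDX5 libraries and 13.7 and 10.2 RPM in the NC libraries. The circRNAs spanning 1 to 10 kb took 50.7% and 49.6% of the reads in DDX5 cells (95% Wilson intervals 50.3 to 51.0 and 49.2 to 50.0) and 50.8% and 49.3% in NC cells (50.5 to 51.2 and 48.9 to 49.6). Those intervals cover counting error only, because reads copied by PCR are not independent molecules. The means were 50.1% ± 0.763 and 50.0% ± 1.12 (SD, n = 2 each), and the groups overlapped (exact permutation test, two-sided p = 1.00).

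The number of these circRNAs detected was 1953 and 1454 in the DDX5 libraries and 1870 and 2076 in the NC libraries. The means were 1704 ± 353 in DDX5 cells and 1973 ± 146 in NC cells (SD, n = 2 each). An exact permutation test gave a two-sided p of 0.667, and with 2 libraries a group its smallest possible p is 0.33. DDX5 replicate 1 lay between the NC libraries and DDX5 replicate 2, the shallowest library, held the fewest. After thinning the deposited counts of each library to 60178 reads, the numbers were 1948 and 1454 in DDX5 cells, against 1870 and 2063 in NC cells. Thinning could change little, since no count of 1 occurs and the circRNAs detected had a median of 11 to 13 reads per library. It therefore cannot show what equal sequencing depth would have given. The difference of the means, DDX5 minus NC, was -270, and leaving out DDX5 replicate 2 gave -20 and leaving out DDX5 replicate 1 gave -519.

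Detection across libraries was sparse. Of the 4013 circRNAs, 2223 (55.4%) were read in 1 library and held 12.4% of the reads, 761 were read in 2 libraries and 508 in 3 libraries. The 521 read in all 4 libraries (13%) held 57.2% of the reads. Both DDX5 libraries shared 843 of the circRNAs and both NC libraries shared 968. The 4 pairs made of 1 library from each group shared 964, 1018, 801 and 817, so the numbers within a group lay inside the range across groups. Reads in both DDX5 libraries and in no NC library were found for 92 circRNAs (2.29%), and reads in both NC libraries and in no DDX5 library for 169 (4.21%). The DDX5 libraries held 78377 and 60178 back-splice reads, against 73173 and 97961 in the NC libraries. The same shares over all spans were not taken, so nothing particular to this span is read from these numbers.

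Detection in all 4 libraries went with read number, with shares close to those of the neighbouring span classes. Of circRNAs with 10 to 19 reads in total, 0 of 959 were read in all 4 libraries and 66.0% were read in 1 library. With 40 to 99 reads, 241 of 555 (43.4%) were read in all 4, and with 100 or more reads 260 of 310 (83.9%), against 82.7% under 1 kb and 83.2% at 10 to 50 kb. No count of 1 occurs in the deposited table and the smallest count is 2. In 1603 of 4437 cases (36.1%), a count of 10 or more in one library stood beside 0 in its partner of the same group, against 30.4% under 1 kb and 38.2% at 10 to 50 kb. Whether low counts were set to 0 by the callers was not tested.

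**Figure D2:**
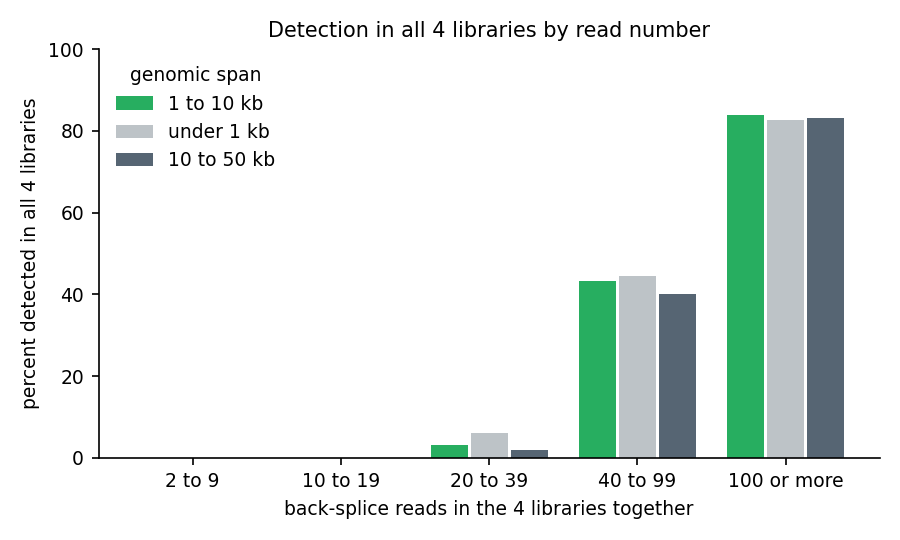
Percent of circRNAs detected in all 4 libraries (vertical axis) by their back-splice reads in the 4 libraries together (horizontal axis), for circRNAs spanning 1 to 10 kb, under 1 kb and 10 to 50 kb. The bars of the 3 classes lie close together in each bin, with 83.9%, 82.7% and 83.2% at 100 or more reads and 0% below 20 reads.

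The reads were concentrated in few circles. The 310 circRNAs with 100 or more reads held 51.8% of the reads, the 10 most abundant held 10.6%, and the 284 with the most reads held at least as many reads as all the others together. In contrast, 1534 circRNAs (38.2%) had fewer than 10 reads in all and together held 5.72% of the reads. Levels differed little by span. Spans of 1 to 2 kb had a median of 14 reads with 14.8% of the circRNAs in all 4 libraries, and spans of 8 to 10 kb had a median of 12 reads with 9.94% in all 4 libraries.

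The 12 circRNAs with the highest mean RPM came from RELL1, ASXL1, CAMSAP1, RHOBTB3, FAM13B, CORO1C, ARHGAP12, KANSL1, RTN4, CCDC134, FOXK2 and TNPO3. All were read in every library. The circle of RELL1 (exons 4 to 6 of 7, 434 nt), a gene related to the TNF receptor family member RELT, had 11917 and 13128 RPM in DDX5 cells, against 13489 and 12607 RPM in NC cells. The circle of ASXL1 (195 nt), a cofactor of the polycomb deubiquitinase BAP1, had 8102 and 10535 RPM in DDX5 cells, against 9361 and 7544 RPM in NC cells. That of CAMSAP1 (425 nt), which binds microtubule minus ends, had 11266 and 6182 RPM in DDX5 cells, against 7352 and 9779 RPM in NC cells. The DDX5 and NC libraries overlapped for ASXL1 and CAMSAP1, and the DDX5 libraries of CAMSAP1 lay further apart than the group means of 8724 ± 3595 and 8566 ± 1716 RPM (SD, n = 2 each).

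The next circles in order of level came from RHOBTB3, FAM13B, CORO1C and ARHGAP12. The circle of RHOBTB3 had 4708 and 3157 RPM in DDX5 cells, against 5617 and 4992 RPM in NC cells. That of FAM13B had 3547 and 4769 RPM in DDX5 cells, against 3745 and 3113 RPM in NC cells. The circle of CORO1C, an actin-binding coronin, had 2896 and 3490 RPM in DDX5 cells, against 4100 and 2042 RPM in NC cells, so here the NC libraries lay on both sides of the DDX5 libraries. ARHGAP12 gave a circle of 794 nt from exons 2 to 3 with 3139 and 2875 RPM in DDX5 cells, against 2829 and 2399 RPM in NC cells.

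The remaining abundant circles differed more in structure than in level. KANSL1, a scaffold of the NSL histone acetyltransferase complex, gave a single-exon circle of 1378 nt (exon 3) with 3254 and 3041 RPM in DDX5 cells, against 2036 and 2909 RPM in NC cells. Part of KANSL1 is duplicated on some human chromosomes, so its reads may be split between copies. The circle of RTN4 (347 nt), a reticulon that shapes the endoplasmic reticulum, had 3024 and 2709 RPM in DDX5 cells, against 2829 and 2562 RPM in NC cells. CCDC134, a coiled-coil protein, gave 3037 and 2509 RPM in DDX5 cells, against 3171 and 2215 RPM in NC cells. The circle of the forkhead transcription factor FOXK2 had 2654 and 2775 RPM in DDX5 cells, against 2255 and 2909 RPM in NC cells. For RTN4, CCDC134 and FOXK2 the ranges of the groups overlapped.

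Of the 12 circles 4 had groups without overlap in RPM, of which RHOBTB3 and TNPO3 were lower in both DDX5 libraries and ARHGAP12 and KANSL1 higher. Over all circRNAs tested, both DDX5 libraries lay below both NC libraries for 12.5% and above them for 10.8%, and no difference from those shares is read from 12 circles. TNPO3 is the import receptor of SR splicing factors. Its circle of 432 nt had 2182 and 2227 RPM in DDX5 cells, against 2884 and 2603 RPM in NC cells (log2 fold change -0.42, standard error 0.29, edgeR, adjusted p = 0.950). The difference was not past the threshold, although the libraries of each group lay close together. A circle has a single back-splice junction whatever its length, so levels were not divided by length. Whether junctions of different circles are read equally well was not tested, so the order that follows is one of reads. In order of mean RPM, RELL1 at 12785 stood above ASXL1 at 8886 and CAMSAP1 at 8645, whose libraries overlapped, and RHOBTB3 followed at 4618. From RHOBTB3 and FAM13B (3794 RPM) down to TNPO3 (2474 RPM) neighbouring circles overlapped in their libraries.

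**Figure D3:**
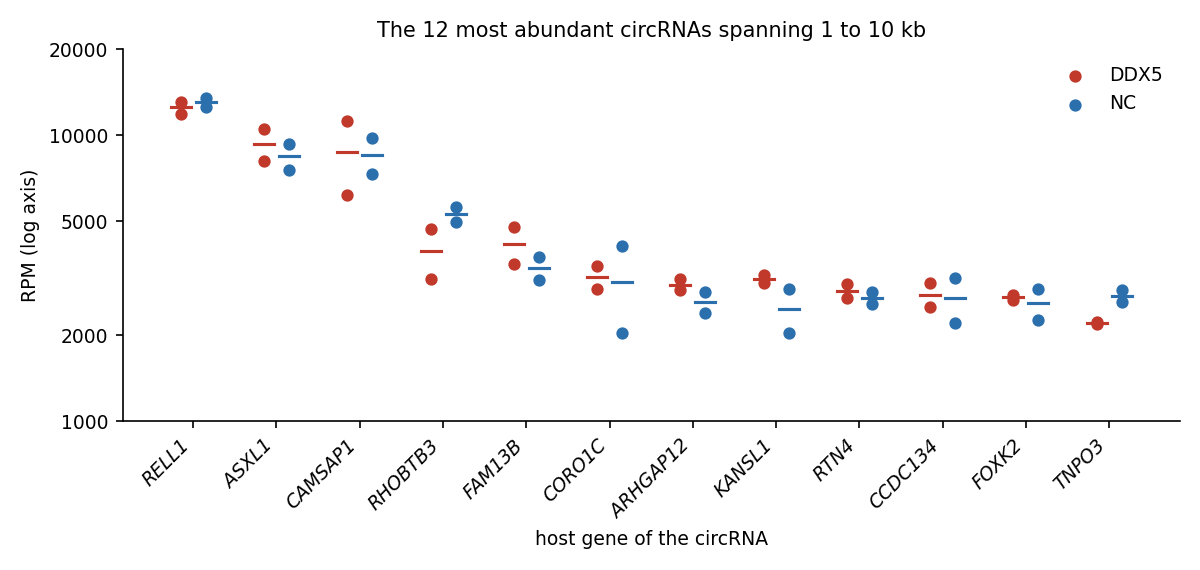
RPM per library on a log axis for the 12 most abundant circRNAs spanning 1 to 10 kb, with DDX5 libraries in red to the left of NC libraries in blue, points for single libraries and bars for group means (n = 2). The levels run from 12785 RPM on average for RELL1 to 2474 RPM for TNPO3, and for RHOBTB3 and TNPO3 both DDX5 libraries lie below both NC libraries.

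Most host genes gave a single circle of this size. Of the 2506 hosts, 1632 (65.1%) had 1 circRNA spanning 1 to 10 kb, 530 had 2 and 74 had 5 or more, and 1118 hosts (44.6%) also had circRNAs of other spans. Where a host had 2 or more, its most abundant circle held a median of 67.1% of their reads. The opening exon start was shared with another circRNA in 991 cases (24.7%) and the closing exon end in 912 (22.7%). The top 10 hosts held 11.1% of the reads and the top 100 held 36.4%.

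Among the hosts with the most circRNAs of this span were UBA2 with 10, UBAP2 and XPO1 with 9 each, and ABCC1 and NUP98 with 8 each. In UBA2 the 4 circles whose junctions are printed above were all read in every library. The circle of exons 2 to 5 had 91 and 84 reads in DDX5 cells, against 70 and 72 reads in NC cells. That of exons 2 to 6 had 54 and 54 reads in DDX5 cells, against 43 and 32 in NC cells. The circles that open with exon 3 were lower, with 29 and 23 reads in DDX5 cells, against 27 and 30 in NC cells for exons 3 to 5, and 25 and 44 reads in DDX5 cells, against 43 and 26 in NC cells for exons 3 to 6. With either closing exon, the UBA2 circle that opens with exon 2 had more reads over the 4 libraries than the one that opens with exon 3. The log2 fold changes of the 4 circles lay between 0.05 and 0.69, and the smallest unadjusted p was 0.347 (edgeR). The other 6 circles of UBA2 had between 2 and 66 reads in all.

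UBAP2, a ubiquitin-associated protein, was dominated by 1 circle. Exons 7 to 8 (159 nt) gave 131 and 138 reads in DDX5 cells, against 181 and 156 reads in NC cells, which is 79.5% of the reads of its 9 circles. In RPM the groups overlapped, with 1671 and 2293 RPM in DDX5 cells, against 2474 and 1592 RPM in NC cells. Another UBAP2 circle, of exons 10 to 12, had 10 and 19 reads in DDX5 cells, against 0 and 0 in NC cells (log2 fold change 7.02, unadjusted p = 0.0497, edgeR). XPO1, the nuclear export receptor CRM1, gave 66 and 0 reads in DDX5 cells, against 80 and 48 reads in NC cells for exons 4 to 5, and 38 and 14 reads in DDX5 cells, against 23 and 26 in NC cells for exons 18 to 21. Circles of XPO1 opening with exon 18 closed with exon 20, 21, 23 or 24.

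ABCC1, a drug efflux transporter, had no dominant circle, and its most abundant one (exons 11 to 12) gave 14 and 38 reads in DDX5 cells, against 11 and 29 in NC cells, or 26.9% of the reads of its 8 circles. NUP98, a nucleoporin, had 8 circles with 107 reads in all, of which 6 were read in 1 library.

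Host genes were grouped by general function into 9 lists, which together covered 636 hosts, 1214 circRNAs and 30.5% of the reads. In edgeR's test of DDX5 against NC, described further on, an unadjusted p under 0.05 was found for 1.28% of all 4671 circRNAs in the higher and for 1.37% in the lower direction (2.65% in either), and the counts per list are to be read against those shares. Chromatin regulators held the most circRNAs of these lists, 206 of 93 hosts, and of the 135 tested members 0 passed that threshold in either direction (edgeR). It includes ASXL1 and the circle of SETD3, the actin histidine methyltransferase (exons 2 to 6, 683 nt), which had 142 and 123 reads in DDX5 cells, against 138 and 222 in NC cells. The median log2 fold change of the chromatin regulators was -0.22, against -0.27 over all circRNAs tested. In the other lists it was -0.77 for nuclear pore proteins and transport receptors, -0.62 for the cytoskeleton, -0.48 for mRNA processing, -0.24 for ubiquitin ligases, -0.09 for kinases and phosphatases, -0.07 for translation and RNA decay, 0.06 for vesicle trafficking and 0.12 for DNA replication and repair.

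mRNA processing and splicing held 102 circRNAs of 61 hosts. Of 63 tested, 4 were higher, from RBM23, ZC3H18, RBM6 and RBM5, and 0 were lower (unadjusted p under 0.05, edgeR). The 2 most abundant members were not among those 4. The circle of HNRNPC, which binds uridine tracts in nascent transcripts, had 117 and 125 reads in DDX5 cells, against 162 and 192 in NC cells, and that of RBM33 had 90 and 77 reads in DDX5 cells, against 122 and 125 in NC cells. In RPM the groups overlapped for both. HNRNPC had 1493 and 2077 RPM in DDX5 cells, against 2214 and 1960 RPM in NC cells. RBM33 had 1148 and 1280 RPM in DDX5 cells, against 1667 and 1276 RPM in NC cells. The fitted log2 fold changes of -0.34 for HNRNPC and -0.38 for RBM33 were close to their standard errors of 0.35 and 0.44.

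Ubiquitin ligases and deubiquitinases held 187 circRNAs of 90 hosts. Of 111 tested, 2 were higher (UBE3A and UBAP2) and 2 lower (UBR2 and UBE3C) at an unadjusted p under 0.05 (edgeR). UBAP2 was counted in this list as a ubiquitin-associated protein, not as a ligase or deubiquitinase. Nuclear pore proteins and transport receptors held 96 circRNAs of 37 hosts, of which 2 of 50 tested were higher (TNPO1 and RANBP2) and 0 lower by the same test. The circle of the import receptor IPO7 had 57 and 22 reads in DDX5 cells, against 71 and 69 in NC cells. In RPM its groups overlapped, with 727 and 366 RPM in DDX5 cells, against 970 and 704 RPM in NC cells. FBXW4, an F-box protein, gave 98 and 59 reads in DDX5 cells, against 57 and 135 in NC cells.

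Vesicle trafficking and endocytosis held 147 circRNAs, with 1 of 91 tested higher, from the Rab GTPase-activating protein gene TBC1D14 (21 and 15 reads in DDX5 cells, against 0 and 0 in NC cells), and 0 lower. Its abundant members were VAPB and VAPA, paralogous tethers of the endoplasmic reticulum. VAPB gave 67 and 110 reads in DDX5 cells, against 122 and 149 in NC cells, and VAPA gave 103 and 39 reads in DDX5 cells, against 56 and 121 in NC cells. In RPM the VAPB groups overlapped, with 855 and 1828 RPM in DDX5 cells, against 1667 and 1521 RPM in NC cells. Cytoskeleton, motors and centrosome held 130 circRNAs with 0 of 82 tested higher and 2 lower, one of them from PCNT, whose circle was read in 1 library. Both counts are at an unadjusted p under 0.05 (edgeR).

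Protein kinases and phosphatases held 162 circRNAs, with 0 of 100 tested higher and 1 lower, from the TGF-beta receptor gene TGFBR2, whose circle had 0 and 0 reads in DDX5 cells, against 22 and 22 in NC cells (unadjusted p = 0.0195, edgeR). The abundant kinase circles were those of HIPK3, with 166 and 152 reads in DDX5 cells, against 105 and 255 in NC cells, and BMPR2, a BMP receptor, with 111 and 90 reads in DDX5 cells, against 118 and 121 in NC cells. In RPM the BMPR2 groups overlapped, with 1416 and 1496 RPM in DDX5 cells, against 1613 and 1235 RPM in NC cells. DNA replication and repair held 84 circRNAs with 0 of 52 tested past the unadjusted threshold in either direction. DNA2, a nuclease and helicase, gave 56 and 68 reads in DDX5 cells, against 128 and 110 in NC cells, and REV1, a translesion polymerase, gave 58 and 58 reads in DDX5 cells, against 37 and 59 in NC cells. In RPM the groups overlapped for DNA2, with 714 and 1130 RPM in DDX5 cells, against 1749 and 1123 RPM in NC cells (log2 fold change -0.75, standard error 0.48, adjusted p = 0.950, edgeR). They did not overlap for REV1, with 740 and 964 RPM in DDX5 cells, against 506 and 602 RPM in NC cells (log2 fold change 0.50, standard error 0.68, adjusted p = 0.950, edgeR). Translation and RNA decay held 101 circRNAs, with 1 of 60 tested higher (EXOSC10) and 0 lower. Its circles of ATXN2 and of the exonuclease XRN2 had 94 and 174 against 131 and 103 reads, and 54 and 43 against 32 and 53 reads, in DDX5 against NC cells. In RPM the XRN2 groups did not overlap, with 689 and 715 RPM in DDX5 cells, against 437 and 541 RPM in NC cells (log2 fold change 0.41, unadjusted p = 0.590, edgeR).

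Markers of the labelled cell type were few among hosts. Of 21 gastric and epithelial markers, EPCAM, GATA4 and CDH1 hosted 7 of these circRNAs with 182 reads, and their summed level was 370 and 482 RPM in DDX5 cells, against 820 and 653 RPM in NC cells. The other 18 of these markers hosted no circRNA of this span with reads. None of 18 stromal and immune markers was a host (0 reads). Whether the lower marker sum in DDX5 cells bears on other differences was not tested. The EPCAM circle of exons 2 to 4 gave 0 and 17 reads in DDX5 cells, against 27 and 30 in NC cells (log2 fold change -1.43, unadjusted p = 0.342, edgeR). The EPCAM circle of exons 6 to 7 was read in all 4 libraries. It had 4 and 12 reads in DDX5 cells, against 15 and 14 in NC cells, and its groups overlapped in RPM (log2 fold change -0.61, unadjusted p = 0.779, edgeR). The other marker circles were each read in 1 library. Both CDH1 circles with 13 and 8 reads and the EPCAM circle of exons 4 to 7 with 4 reads lay in DDX5 replicate 1. The GATA4 circle with 20 reads lay in NC replicate 2 and the EPCAM circle of exons 5 to 7 with 18 reads in NC replicate 1.

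For DDX5 against NC, the circRNAs with a minimum of 10 reads in total (61.8% of the 4013) were tested by edgeR's quasi-likelihood test on the counts, fitted on circRNAs of all spans. The other 1534 were not tested. At a Benjamini-Hochberg adjusted p under 0.05, 2 were higher in DDX5 cells, from TNPO1 and UBE3A, and 0 were lower, where 0.0856% and 0% of all 4671 tested circRNAs were called higher and lower. With an unadjusted p under 0.05 there were 30 higher (1.21%) and 33 lower circRNAs (1.33%), near the 1.28% and 1.37% over all spans, and in either direction 2.54% against 2.65%. Scaling by total reads only turned the split into 38 higher and 26 lower. No lower circRNA passed the adjusted threshold with DESeq2, with the exact test of edgeR or with limma on log2(RPM + 1) either, whereas limma on log2(RPM + 0.1) called 147. Single libraries weighed on these counts. Leaving out DDX5 replicate 1 gave 0 adjusted calls in either direction and 13 higher and 75 lower unadjusted ones. Leaving out DDX5 replicate 2 gave 1 higher and 3 lower adjusted calls, with 6 and 43 unadjusted. With NC replicate 1 left out the adjusted calls numbered 13 higher and 1 lower and the unadjusted 49 and 16, and with NC replicate 2 left out the adjusted calls numbered 10 and 0 and the unadjusted 61 and 17. In a bulk library, a circRNA held by fewer cells and one at a lower level in each cell cannot be told apart.

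Groups without overlap were as frequent as in the whole table. Both DDX5 libraries lay above both NC libraries for 276 tested circRNAs (11.1%, against 10.8% over all spans), and below them for 314 (12.7%, against 12.5%). The median log2 fold change was -0.26, against -0.27 over all spans, and it was -0.17 and -0.16 when libraries were scaled by their total reads only. It was 0.02 without NC replicate 2, -0.14 without NC replicate 1 and -0.96 without DDX5 replicate 1. By span, the median was -0.12 at 1 to 2 kb, -0.10 at 2 to 3 kb, -0.29 at 3 to 4 kb, -0.38 at 4 to 6 kb, -0.31 at 6 to 8 kb and -0.54 at 8 to 10 kb. An unadjusted p under 0.05 (edgeR) was found for 0 higher and 8 lower of 274 tested at 8 to 10 kb, for 7 higher and 3 lower of 346 at 6 to 8 kb, and for 2 to 10 higher and 3 to 9 lower in each of the shorter bins, against 1.28% and 1.37% over all spans.

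Fold changes were mostly small where all libraries had reads. For the 521 circRNAs read in all 4 libraries the median log2 fold change was -0.04 (quartiles -0.43 and 0.37), and 459 of them (88.1%) lay within 1 log2 unit of 0. Circles at 0 in a group are left out of that set by its definition. In contrast, 976 of the tested circRNAs (39.4%, against 39.1% over all spans) had no reads in 1 group. The fitted fold changes of those depend on the constant that the fit adds. Of the 63 circRNAs with an unadjusted p under 0.05, 51 had no reads in 1 group, 11 were read in 1 library and 3 were read in all 4 libraries.

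**Figure D4:**
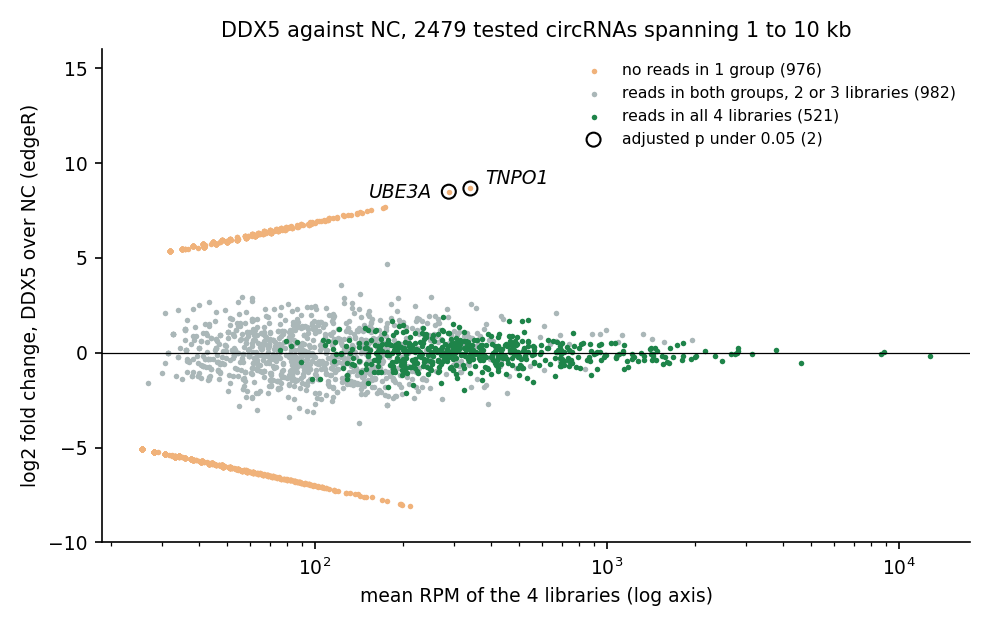
Log2 fold change of DDX5 over NC from edgeR (vertical axis) against the mean RPM of the 4 libraries (log axis) for the tested circRNAs spanning 1 to 10 kb. Circles with reads in all 4 libraries (green, 521) cluster near 0, those without reads in 1 group (orange, 976) form the outer arms at fitted values beyond 5 in size, and black rings mark TNPO1 and UBE3A.

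The 3 with an unadjusted p under 0.05 and reads in all 4 libraries came from RHOBTB3, MAD1L1 and ARF3, of which MAD1L1 and ARF3 were named after their values were seen. The RHOBTB3 circle had 369 and 190 reads in DDX5 cells, against 411 and 489 in NC cells (log2 fold change -0.52, standard error 0.19, unadjusted p = 0.00611, adjusted p = 0.950, edgeR). MAD1L1, a spindle checkpoint protein, gave a circle of exons 6 to 10 with 57 and 58 reads in DDX5 cells, against 15 and 25 in NC cells (log2 fold change 1.75, standard error 0.84, unadjusted p = 0.0382, edgeR). The circle of ARF3 (exons 3 to 5), a small GTPase of the Golgi, had 50 and 30 reads in DDX5 cells, against 84 and 120 in NC cells (log2 fold change -1.16, standard error 0.58, unadjusted p = 0.0458, edgeR). In RPM each of the 3 had groups without overlap, and none passed the adjusted threshold.

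The TNPO1 circle of exons 5 to 6 (241 nt, 3921 bases of genome) had the smallest p-value in this span range. It had 52 and 42 reads in DDX5 cells, against 0 and 0 in NC cells, or 663 and 698 RPM in DDX5 cells, a level at least 38.7-fold higher against a floor of 3 reads over both NC libraries (adjusted p = 0.00655, edgeR). TNPO1 encodes transportin 1, a nuclear import receptor of RNA-binding proteins, and its only other circle, of exons 9 to 11, had 9 and 0 reads in DDX5 cells, against 0 and 0 in NC cells. The bound covers counting error only, and as given above a library can hold 0 reads of a circRNA that its partner holds at 10 or more. Leaving out DDX5 replicate 1 gave an adjusted p of 0.569 and leaving out DDX5 replicate 2 gave 0.247 (edgeR), and the adjusted p was 1.00 with edgeR's exact test or with a minimum of 20 reads.

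The call of UBE3A, the ubiquitin ligase E6AP, rested on 1 library. Its circle of exons 4 to 8 (437 nt) had 90 and 0 reads in DDX5 cells, against 0 and 0 in NC cells (adjusted p = 0.0272, edgeR). Without DDX5 replicate 1 it had no reads at all, and DESeq2 gave an adjusted p of 0.813. Leaving out NC replicate 1 gave an adjusted p of 0.187 and leaving out NC replicate 2 gave 0.0706 (edgeR). The pair of DDX5 libraries thus differed from each other as much as DDX5 replicate 1 differed from the NC libraries.

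Among circRNAs whose DDX5 libraries both lay above both NC libraries, the smallest p-values after TNPO1 belonged to RBM23, EXOSC10, RBM34 and RBM6. The circle of RBM23 (exons 2 to 3, 189 nt), an RNA-binding protein, had 71 and 77 reads in DDX5 cells, against 36 and 0 in NC cells (log2 fold change 2.07, standard error 0.74, unadjusted p = 0.00536, adjusted p = 0.950, edgeR). EXOSC10 encodes a catalytic subunit of the nuclear exosome. Its circle (exons 17 to 19, 278 nt) had 22 and 25 reads in DDX5 cells, against 0 and 0 in NC cells. Against a floor of 3 reads over both NC libraries it was at least 19.4-fold higher in DDX5 cells (unadjusted p = 0.00559, edgeR). The RBM34 circle (exons 4 to 5) had 17 and 28 reads in DDX5 cells, against 0 and 0 in NC cells. Against the same floor it was at least 18.5-fold higher in DDX5 cells. As for TNPO1, both bounds cover counting error only. RBM6, a regulator of alternative splicing, gave 20 and 22 reads in DDX5 cells, against 0 and 0 in NC cells from exons 3 to 5, a circle of 1439 nt. Each of these had an adjusted p of 0.950 (edgeR), and without NC replicate 1 that of RBM23 was 2.22e-05 because its remaining NC library was at 0.

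RBM34 had no other circle, and the other circles of these hosts varied. RBM6 also gave a circle of exons 16 to 17, with 46 and 59 reads in DDX5 cells, against 77 and 79 in NC cells (log2 fold change -0.37, unadjusted p = 0.533, edgeR). In RPM the groups of that circle overlapped, with 587 and 980 RPM in DDX5 cells, against 1052 and 806 RPM in NC cells. Together the RBM6 circles had 66 and 81 reads in DDX5 cells, against 77 and 79 in NC cells. In EXOSC10 a circle with the same opening exon but closing with exon 21 had 8 and 8 reads in DDX5 cells, against 14 and 24 in NC cells, and one of exons 4 to 6 had 8 and 0 reads in DDX5 cells, against 0 and 0 in NC cells. In RBM23 the circle of exons 2 to 5, which shares the opening exon, had 48 and 25 reads in DDX5 cells, against 37 and 42 in NC cells, and the circle of exons 3 to 5 had 0 and 0 reads in DDX5 cells, against 0 and 24 in NC cells. The difference between circles of 1 host was not tested.

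The other 5 circles in that direction were at 0 in both NC libraries. URB1, a ribosome biogenesis factor, gave 21 and 20 reads in DDX5 cells, PGAP3, which remodels GPI anchors, gave 29 and 12, and the zinc finger gene ZNF544 gave 9 and 28. GUSBP1, a pseudogene with near-identical copies, gave 19 and 19 reads in DDX5 cells, and RANBP2, a nucleoporin whose sequence is shared with the RGPD genes, gave 11 and 25. The assignment of these last reads to 1 gene is uncertain. Their lower bounds, which cover counting error only, lay between 14.8-fold and 16.9-fold, and their adjusted p was 0.950 (edgeR).

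**Figure D5:**
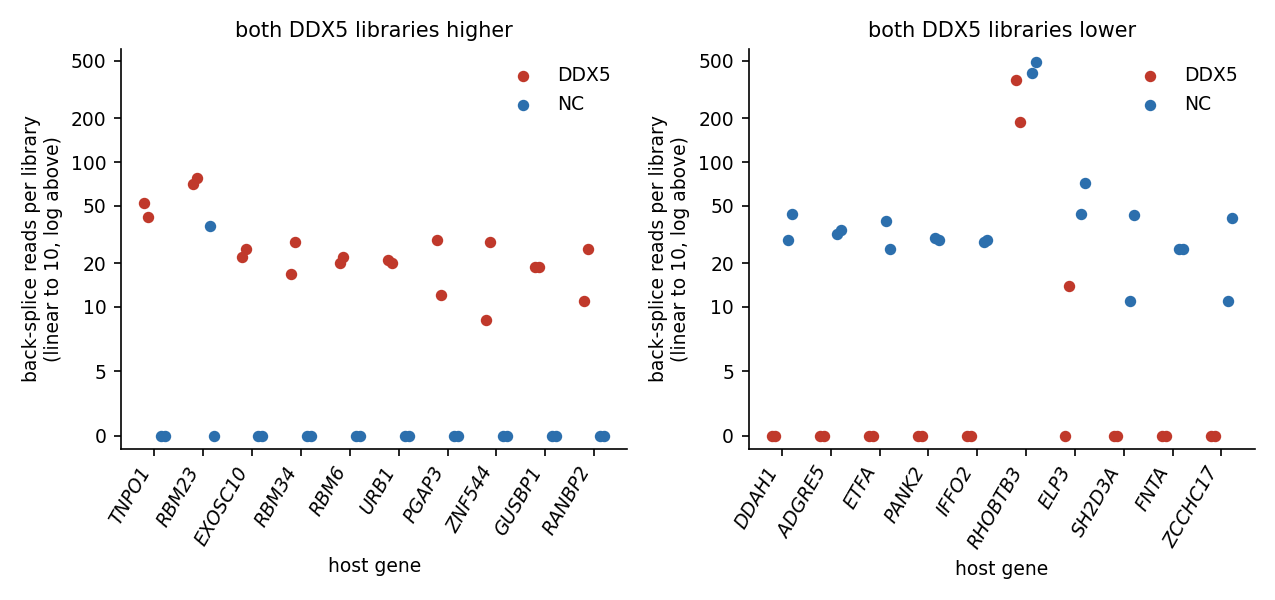
Back-splice reads per library (linear to 10, log above) for the 10 circRNAs with the smallest p-values in each direction among those without overlap between the groups, with DDX5 libraries in red to the left of NC libraries in blue. In the left panel 9 of 10 circles are at 0 in both NC libraries, and in the right panel 8 of 10 are at 0 in both DDX5 libraries, RHOBTB3 and ELP3 being the exceptions.

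In the other direction, the smallest p-values belonged to DDAH1, ADGRE5 and ETFA, and none passed the adjusted threshold. The circle of DDAH1 (exons 2 to 4, 294 nt), which hydrolyses asymmetric dimethylarginine, had 0 and 0 reads in DDX5 cells, against 29 and 44 in NC cells, which is lower by at least 19.7-fold in DDX5 cells (adjusted p = 0.436, edgeR). That of ADGRE5, the adhesion receptor CD97, had 0 and 0 reads in DDX5 cells, against 32 and 34 in NC cells, which is lower by at least 17.8-fold in DDX5 cells (adjusted p = 0.596, edgeR). The ETFA circle of exons 3 to 5, from the alpha subunit of the electron transfer flavoprotein, had 0 and 0 reads in DDX5 cells, against 39 and 25 in NC cells, which is lower by at least 17.3-fold in DDX5 cells (adjusted p = 0.596, edgeR). PANK2, a mitochondrial pantothenate kinase, gave 0 and 0 reads in DDX5 cells, against 30 and 29 in NC cells, and IFFO2, an intermediate filament family member, gave 0 and 0 in DDX5 cells, against 28 and 29 in NC cells.

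Both ETFA circles of this span that open with exon 3 were at 0 in DDX5 cells. Another that opens there spans more than 10 kb, and over all spans the ETFA circles had 50 and 70 reads in DDX5 cells, against 124 and 166 in NC cells. The one of exons 3 to 8, with the same 15 bases after the junction, had 0 and 0 reads in DDX5 cells, against 0 and 78 in NC cells, so that all of its reads lay in NC replicate 2. The remaining ETFA circle of this span, of exons 2 to 4, had 33 and 28 reads in DDX5 cells, against 39 and 46 in NC cells (log2 fold change -0.29, unadjusted p = 0.745, edgeR). PANK2 likewise had a second circle with the same opening exon, closing with exon 3, at 0 and 4 reads in DDX5 cells, against 6 and 0 in NC cells.

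The remaining circles in this direction, except that of FNTA, were less even between libraries. ELP3, the catalytic subunit of Elongator, gave 0 and 14 reads in DDX5 cells, against 44 and 72 in NC cells (log2 fold change -2.70, standard error 1.04, unadjusted p = 0.00952, edgeR). SH2D3A, an SH2 domain adaptor, gave 0 and 0 reads in DDX5 cells, against 11 and 43 in NC cells. FNTA, the alpha subunit of farnesyltransferase, gave 0 and 0 reads in DDX5 cells, against 25 and 25 in NC cells from exons 3 to 5, while its circle of exons 2 to 3 had 45 and 32 reads in DDX5 cells, against 26 and 41 in NC cells. ZCCHC17 gave opposite patterns in different circles. Exons 4 to 5 had 0 and 0 reads in DDX5 cells, against 11 and 41 in NC cells, and exons 6 to 7 had 35 and 0 reads in DDX5 cells, against 0 and 0 in NC cells. The adjusted p was 0.950 for ELP3, SH2D3A, FNTA and ZCCHC17 (edgeR).

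The circRNAs read in a single library with the most reads were those of UBE3A with 90 in DDX5 replicate 1, of ETFA (exons 3 to 8) with 78 in NC replicate 2 and of PCNT and CCDC66 with 50 each in NC replicate 2. PCNT encodes the centrosome scaffold pericentrin, and its circle covers exons 16 to 21 with 1051 nt. Circles with more exons could also be frequent, as for ATP5C1, the gamma subunit of ATP synthase, whose circle of exons 3 to 8 was the most abundant one with 6 exons. It had 0 and 76 reads in DDX5 cells, against 61 and 64 in NC cells, so that DDX5 replicate 1 stood apart from the other 3 libraries.

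Circles at the limits of the span range mostly had few reads. Just inside were UBR4 at 1000 bases with 8 reads in NC replicate 2, EXOC5 at 1001 bases with 11 and 0 reads in DDX5 cells, against 15 and 0 in NC cells, TARBP1 at 9983 bases with 8 reads in NC replicate 1, and C20orf194 at 9993 bases with 2 reads in DDX5 replicate 2. Just outside were CPSF7 and ZNF92 at 999 bases with 15 and 12 reads in all, PTPN9 at 10002 bases with 25 and LRP5 at 10000 bases with 75.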

How the data were processed

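The authors deposited counts of reads across back-splice junctions for 11760 circRNAs, of which 4173 had 0 reads in all 4 libraries, and the same values as RPM, which a recalculation from the counts matched to within 0.00499 RPM. CIRCexplorer2 and CIRI2 are the callers in the paper, and BWA and hg38 stand in the submitters' processing notes. Their versions, and how both callers' lists were merged, were not given in the sources used here. Only 83 of the starts equal their place on GRCh38, so circRNAs were placed on GENCODE 29 exons of their host gene by genomic span, and 11456 (97.4%) could be placed. Where a gene had several placed circRNAs, 99.1% of them shared the commonest offset of that gene. The paper gives RPMI as the growth medium, whereas the labels give DMEM. The names of 3 hosts with 5 circRNAs read as dates and were left as deposited.

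Groups came from the sample labels, and every column of per-sample values was used. Counts were tested with edgeR 4.0.16 in R 4.3.3 (glmQLFit and glmQLFTest, TMM factors, a total of at least 10 reads, Benjamini-Hochberg adjustment over all 4671 tested, threshold 0.05). The fit was first run on simulated counts with a single dispersion and no step that sets low counts to 0. That run cannot show how the test behaves with the zeros seen here. A standard error is the absolute log2 fold change over the root of its F statistic. A fold against a group at 0 is a bound against 3 reads over its 2 libraries. It covers counting error only, and not the zeros that libraries of the same group can hold. By the same rule the UBE3A circle gave 37.1-fold, although its DDX5 replicate 2 had 0 reads. A count of 0 allows up to 3 reads, which is 38.3 and 49.9 RPM in the DDX5 libraries and 41.0 and 30.6 RPM in the NC libraries. Alternatives were RLE factors, total reads only, other filters, DESeq2 1.42.0, edgeR's exact test, limma 3.58.1 on log2(RPM + 1) and log2(RPM + 0.1), a block by replicate number, and fits without each library in turn. Python 3.11.15 with pandas 2.3.3 was used for the tables.

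The circRNAs, host lists and tests were chosen with earlier results of these data known. Those named are the 12 with the highest mean RPM, the 10 smallest p-values per direction without overlap between groups, the hosts with the most circRNAs, the 2 most abundant per host list, the 3 with the most reads in a single library (and a tie), those nearest to the span limits and the most abundant per number of exons from 1 to 6. Other circles of those hosts, and list members past the unadjusted threshold, were named after their values were seen. The values of some circRNAs that fall under this rule are not reported here.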

Additional observations from a re-analysis of the deposited data

How the results depend on the processing

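At an unadjusted p under 0.05 the edgeR test gave 30 higher and 33 lower circRNAs. The numbers were 16 and 16 with a minimum of 20 reads, 2 and 6 with edgeR's exact test, and 86 and 162 with limma on log2(RPM + 1) and on log2(RPM + 0.1). When 1 library was left out they ranged from 6 to 61 higher and from 16 to 75 lower. At the adjusted threshold, the 2 higher circRNAs became 0 with a minimum of 20 reads, edgeR's exact test or limma on log2(RPM + 1), 1 with DESeq2 and 79 with limma on log2(RPM + 0.1), and 0 to 13 with a library left out. The 0 lower ones became 147 with limma on log2(RPM + 0.1) and 0 to 3 with a library left out. Where a group kept 1 library, that library was assumed to vary like the other group. The median log2 fold change of -0.26 was -0.13 with a minimum of 20 reads and lay between -0.96 and 0.02 with a library left out. The difference in read share, DDX5 minus NC, was 0.0695 percentage points, -0.0525 over circRNAs with at least 10 reads, and between -0.721 and 0.860 with a library left out. The difference in the number detected lay between -519 and -20.0. The causes were not tested.

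The labels do not say whether libraries with the same replicate number were prepared together. The differences between replicates correlated at 0.00541 over 4671 circRNAs. Many of these had 0 reads in a library, so the correlation cannot show whether the libraries were paired. With the replicate number as a block, an unadjusted p under 0.05 was found for 22 higher and 15 lower circRNAs, and an adjusted one for 7 and 0. Among the single circRNAs named, 7 of 55 log2 fold changes turned sign under an alternative that kept all libraries, none of them above 0.07 in size. No circRNA of this span with fewer than 20 reads was read in all 4 libraries. Since the smallest count is 2, this was in part fixed in advance, and the reason for the missing reads was not tested.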
